A study of Homo sapiens with 4 samples.

Results

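CAV1, CAV2, CAVIN1 and CAVIN3 encode the caveolins and cavins that build the coat of caveolae, and their mRNAs were examined in polysome profiling data of METTL3-reconstituted breast cancer cells. They were taken by gene symbol from a list of caveolar coat genes, drawn up with earlier results of these data known, and make 4 of the 28198 genes in the table. MDA-MB-231 is an established human breast cancer line of the triple-negative type. In all cells studied here endogenous METTL3, the catalytic subunit of the N6-methyladenosine (m6A) writer, was depleted with a lentiviral shRNA and replaced by a lentiviral METTL3, either wild type (METTL3-WT) or K177Q (METTL3-K177Q), in which glutamine stands for lysine to mimic acetylation. In both genotypes cycloheximide, which holds ribosomes on mRNA, was added for 5 min at 100 µg/mL, and the lysates were run on sucrose gradients. The sub-polysome fraction pooled 40S, 60S and 80S, the polysome fraction pooled the heavier gradient fractions, and poly(A)-selected RNA of each was sequenced. Each genotype and fraction is represented by 1 library, all labelled replicate 2, so 4 libraries were analysed. No value therefore has a replicate error, no difference was tested, and higher or lower below describes these libraries alone. The comparison asks how far each caveolar mRNA sat on polysomes, and whether that placement differed between the METTL3 genotypes. The study followed CAV1 as an m6A-modified mRNA, and reported less m6A on it and less CAV1 mRNA and protein in METTL3-K177Q cells. That mRNA was measured in unfractionated RNA, which is not among these libraries.

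Caveolae are flask-shaped pits of the plasma membrane that flatten under tension and take part in endocytosis, lipid handling and signalling. Caveolins are hairpin membrane proteins that oligomerise into the coat core, and cavins are soluble proteins that trimerise and bind it from the cytosol. CAV1 and CAVIN1 are both needed for caveolae outside muscle, whereas CAV2 assembles with CAV1 and depends on it to leave the Golgi. CAVIN3 joins coats that hold CAVIN1. An mRNA carrying many ribosomes sediments in the polysome fraction, and a longer coding sequence has room for more of them.

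Values are FPKM, fragments per kilobase of transcript scaled to the mapped fragments of each library, as the authors gave them. A change common to all mRNAs of a library is lost in this unit, and in such bulk RNA fewer cells with an mRNA and less of it per cell cannot be told apart. FPKM summed to between 767949 and 1037594 per library, and 15773 to 16193 genes were above 0. The table has no counts. The median of FPKM times transcript length within a set window of 30 to 55 was taken as 1 fragment. This gave roughly 24100000 to 25700000 fragments per library, an estimate that the window itself bounds. The 95% intervals below rest on that estimate and cover counting error only. METTL3, which both genotypes carry as a transgene, stood at 9.39 and 38.7 FPKM in the sub-polysome and polysome libraries of METTL3-WT cells, and 5.07 and 29.5 FPKM in those of METTL3-K177Q cells, which does not tell the genotypes apart. Both markers expected in MDA-MB-231 were present, with VIM at 676.7 to 1543 FPKM and CD44 at 110.1 to 151.2 FPKM, while ESR1, PGR and CDH1 stayed below 1 FPKM in each library. Ribosomal protein genes took 26.1% and 26.4% of the FPKM in the sub-polysome libraries but 17.6% in the METTL3-WT and 14.3% in the METTL3-K177Q polysome library. The part of this difference in the ratios below was not tested.

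The windows around the start codons are shown because translation begins there. Each runs over 30 bases of the canonical GENCODE 44 transcript, with the start codon in capitals.
CAV1 start: gccagcATGtctgggggcaaatacgtagac
CAV2 start: gctgcgATGgggctggagacggagaaggcg
CAVIN1 start: gtagccATGgaggaccccacgctctatatt
CAVIN3 start: gggatcATGagggagagtgcgttggagcgg
CAV1 codon 32: aaggccATGgcagacgagctgagcgagaag
All 4 annotated starts have a purine 3 bases before the ATG, as have 87.6% of the 10270 expressed genes with such a window. CAV2 and CAVIN1 also have G directly after the ATG, a pairing found in 47.8% of those genes, whereas CAV1 and CAVIN3 have T and A there. The ATG at codon 32 of CAV1, the start of its shorter beta isoform, carries both features, and gene-level FPKM cannot separate the isoforms.

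The 4 mRNAs differ in architecture. On GRCh38, the build of the files, CAV1 spans chr7:116524994-116561179 on the plus strand, and its canonical transcript of 2456 bases has 3 exons, a coding sequence of 537 bases and a 3′ UTR of 1892 bases. CAV2 is its neighbour on the same strand, 16452 bases away, at chr7:116287380-116508541, with 3 exons, 489 coding bases and a 3′ UTR of 2420 bases. CAVIN1, at chr17:42402449-42423256 on the minus strand, has 2 exons and the longest coding sequence of the group, 1173 bases. CAVIN3, at chr11:6318946-6320532 on the minus strand, is the compact one, with 786 coding bases and a 3′ UTR of 217 bases. The 5′ UTRs of CAV1, CAV2 and CAVIN3 are 27, 44 and 25 bases long and that of CAVIN1 is 159, against a median of 129 over expressed genes. Shared runs over the whole canonical transcripts were taken as a measure of how far paralogs could share reads. The longest run common to CAV1 and CAV2 was 16 bases, and to CAVIN1 and CAVIN3 12 bases.

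GGACT is a frequent form of the sequence at which the METTL3 complex places m6A, and was searched on the sense strand as these 5 letters. Of expressed coding genes 90.4% have it in the transcript and 73.6% in the coding sequence, at a median of 0.931 per kilobase. CAV1 has 1 match, in the 3′ UTR, or 0.407 per kilobase. CAV2 has 2, of which 1 begins at base 102 of the coding sequence and is shown with the motif in capitals.
CAV2 coding motif: cgagaagttcgcGGACTcggaccaggacc
CAVIN1 has 2 matches in its 3′ UTR, and CAVIN3 has 0 in its whole transcript. A match is a run of letters and not a mapped m6A site; these libraries do not measure m6A.

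The order of abundance was CAVIN3, CAVIN1, CAV1 and CAV2 in each of the 4 libraries, on the FPKM scale, which is per length. CAVIN3, also called PRKCDBP, stood at 466.6 FPKM in sub-polysomes and 525.0 FPKM in polysomes of METTL3-WT cells, and at 510.2 and 478.4 FPKM in those of METTL3-K177Q cells. It ranked between 286 and 312 among all genes. Its level was close to flat over the libraries.
CAVIN1, or PTRF, had 138.8 and 298.9 FPKM in the sub-polysome and polysome libraries of METTL3-WT cells, and 135.3 and 335.3 FPKM in those of METTL3-K177Q cells. Both polysome values stood well above both sub-polysome values.
CAV1 had 88.6 and 109.8 FPKM in METTL3-WT cells and 94.6 and 109.1 FPKM in METTL3-K177Q cells, in the same order of fractions. Its polysome libraries were thus slightly above its sub-polysome libraries, and the 2 polysome values were nearly equal.
CAV2 had 36.4 and 22.8 FPKM in METTL3-WT cells, and 33.1 and 17.8 FPKM in METTL3-K177Q cells. It ran the other way, with both polysome values below both sub-polysome values. The closest neighbours in the order were CAV1 and CAVIN1 in the METTL3-K177Q sub-polysome library, at 0.699 times, and CAVIN1 and CAVIN3 in the polysome library, at 0.701 times; without replicates their spread is unknown.

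**Figure D1:**
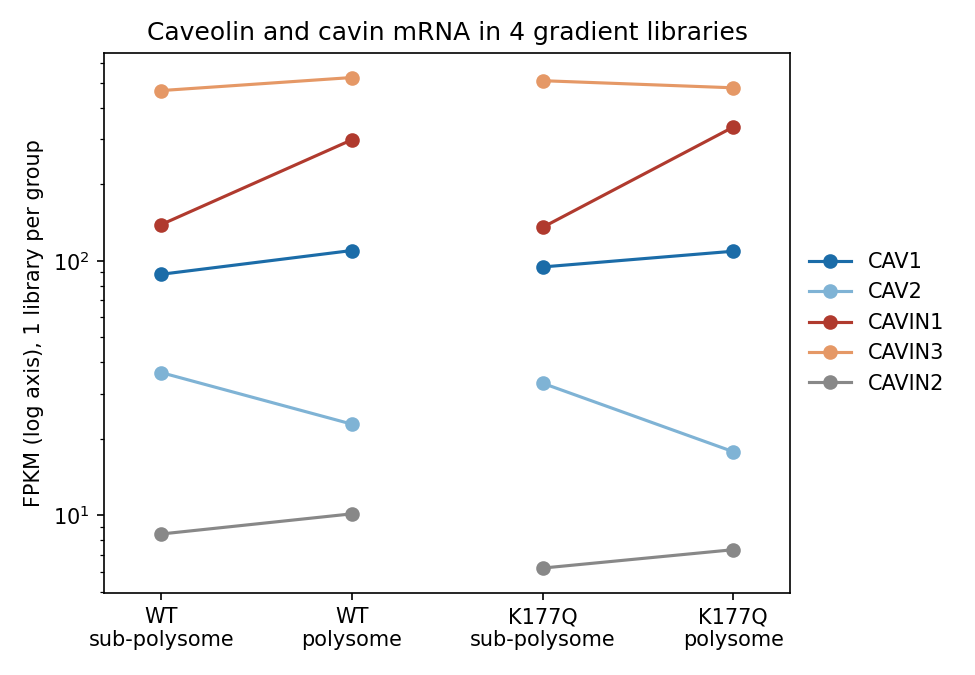
FPKM on a log axis of CAV1, CAV2, CAVIN1, CAVIN3 and the related CAVIN2 in the sub-polysome and polysome libraries of METTL3-WT and METTL3-K177Q cells, 1 library per point, lines joining the fractions of a genotype. CAVIN1 slopes up from 138.8 to 298.9 and from 135.3 to 335.3 FPKM, CAV2 slopes down, and CAV1 and CAVIN3 are nearly flat.

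The polysome to sub-polysome ratio, called translation efficiency in the study, spread the 4 mRNAs widely within one genotype. It was computed as log2 with 0.1 FPKM added to each value, and all 4 members passed the filter of a mean of 1 FPKM or more, which left 10905 genes, called expressed genes here. In METTL3-WT cells 1 of 4 members, CAVIN1, was at least 1.5-fold higher in polysomes, where 28.1% of expressed genes were, and 1 of 4, CAV2, at least 1.5-fold lower, where 19.1% were. In METTL3-K177Q cells these were again CAVIN1 higher, against 30.2% of expressed genes, and CAV2 lower, against 21.3%. The members' shares are thus near those of expressed genes at large, and it is the distance between members that the values describe.

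Among the cavins, CAVIN1 had a log2 ratio of 1.11 in METTL3-WT cells (95% counting interval 1.08 to 1.14), or 2.15-fold, above 90.1% of expressed genes. In METTL3-K177Q cells it was 1.31, or 2.48-fold, above 93.2%. CAVIN3 was at 0.17 in METTL3-WT cells (0.13 to 0.21), above 51.3% of expressed genes, and at -0.093 in METTL3-K177Q cells, above 39.0%. The sign in METTL3-K177Q cells depended on the scaling and was positive when each library was rescaled to the same total (TPM, 0.34).

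Among the caveolins, CAV1 had a log2 ratio of 0.31 in METTL3-WT cells (0.26 to 0.36) and 0.21 in METTL3-K177Q cells (0.15 to 0.26), above 58.4% and 51.8% of expressed genes. On the TPM scale the METTL3-K177Q value was 0.64, past 1.5-fold. CAV2 had -0.67 (-0.76 to -0.58) and -0.89 (-0.99 to -0.79), which is 1.59-fold and 1.85-fold lower in polysomes, and lay above only 16.7% and 14.6% of expressed genes. With TPM these became -0.54 and -0.46, lower still but short of 1.5-fold. Medians over all expressed genes were 0.14 in METTL3-WT and 0.16 in METTL3-K177Q cells, and TPM moved them by 0.13 and 0.43.

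**Figure D2:**
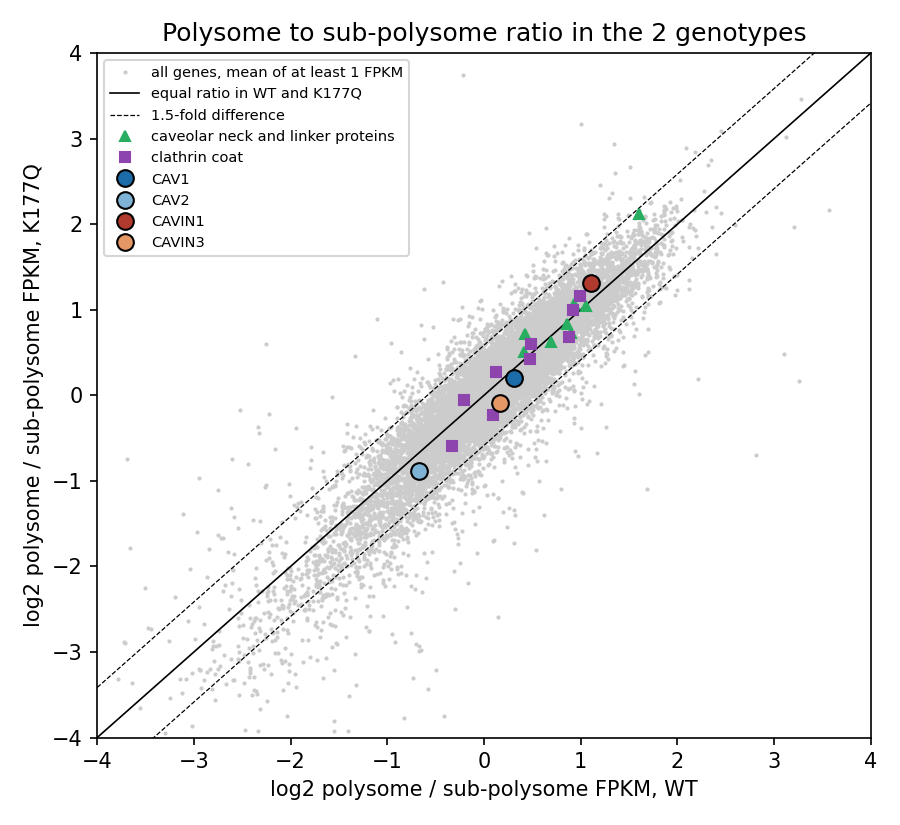
Log2 polysome to sub-polysome ratio in METTL3-WT (horizontal) and METTL3-K177Q cells (vertical) for expressed genes in grey, with 46 genes beyond the axes not drawn, the 4 members as circles, neck and linker genes as triangles and clathrin coat genes as squares. All coloured points lie within the dashed lines of a 1.5-fold difference between genotypes, and CAV2 (-0.67, -0.89) and CAVIN1 (1.11, 1.31) lie at opposite ends of the group.

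Coding length varies along with these ratios. Expressed genes were split into 10 classes of coding length, for the 94.5% of them with a length in GENCODE. The median log2 ratio was -0.44 in METTL3-WT cells in the shortest class, up to 507 bases, and 0.39 in the longest. CAV2 falls in the shortest class, and stood above 37.6% of its genes in METTL3-WT and 41.6% in METTL3-K177Q cells, so within this class it was nearer the middle than among all genes. Its 489 bases lie near the upper limit of the class, however, and it was also well below the median of 0.046 in the next class. CAV1, in that second class, stood above 63.5% and 66.0% of its class. CAVIN3, in the third, was at 50.9% and 42.2%. CAVIN1, in the fifth class with a median of 0.26, stood above 87.7% and 93.7% of its class, and so remained high against mRNAs of like length. In METTL3-K177Q cells the class medians ran from -0.68 to 0.64, a wider range than in METTL3-WT cells.

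**Figure D3:**
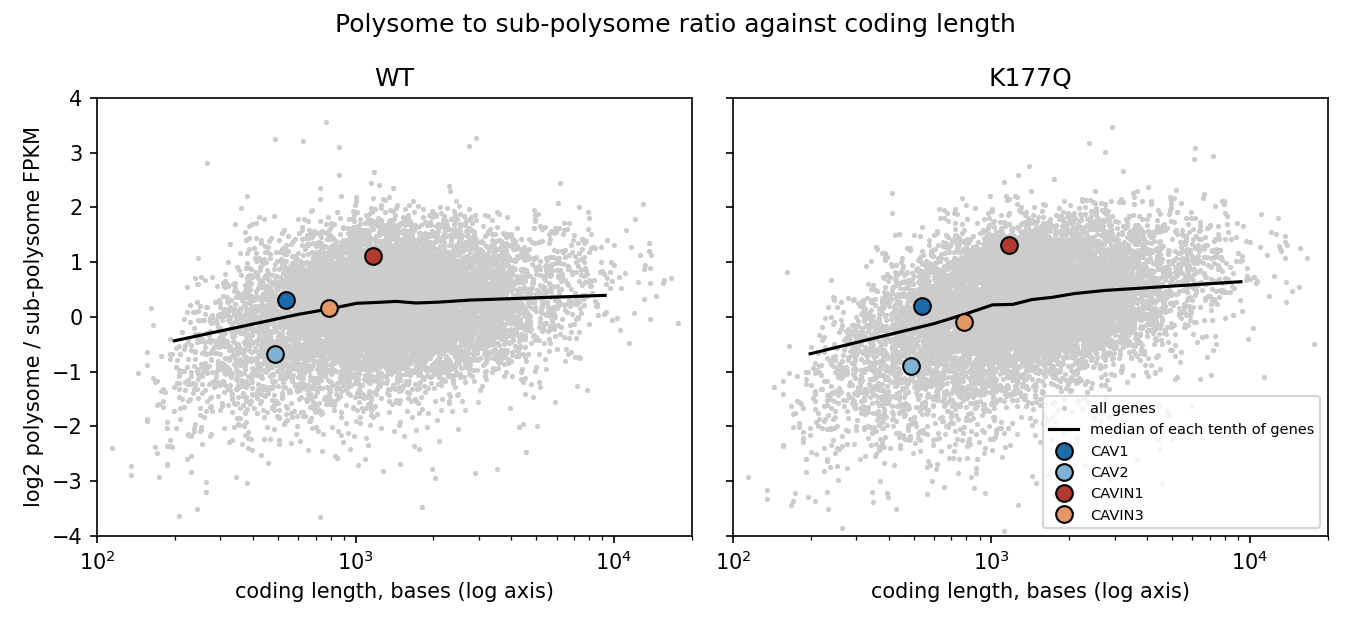
Log2 polysome to sub-polysome ratio against coding length in bases on a log axis, METTL3-WT left and METTL3-K177Q right, with expressed genes in grey (those beyond the axes not drawn), the line joining the medians of 10 length classes and the 4 members as circles. CAVIN1 lies well above the line in both genotypes, CAV2 below it, CAV1 above it, and CAVIN3 near it.

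Between genotypes no member reached 1.5-fold in translation efficiency. On the log2 scale METTL3-K177Q over METTL3-WT was -0.10 for CAV1 (counting interval -0.18 to -0.032), or 0.930-fold, and -0.22 for CAV2 (-0.35 to -0.089), or 0.859-fold. CAVIN3 was at -0.26 (-0.31 to -0.21), or 0.833-fold, and CAVIN1 at 0.20 (0.16 to 0.25), or 1.15-fold. CAVIN1 was the one member above 0 and above most expressed genes, at 73.6% of them, while CAV1, CAV2 and CAVIN3 stood above 38.7%, 27.7% and 23.7%. At 1.5-fold 0 of 4 members were higher, where 4.08% of expressed genes were, and 0 of 4 lower, where 7.03% were. Over expressed genes the median was -0.0095 and the SD 0.455, so each member lay within 1 SD of 0.
The directions of CAV1, CAV2 and CAVIN3 were not stable to scaling: with TPM, which moved the median of all expressed genes by 0.30, they were 0.19, 0.078 and 0.036. Against the shifted median, at 0.29, they were again the lower ones. CAVIN1 was positive on each scale tried, from 0.18 with size factors to 0.50 with TPM. Counts over expressed genes turned as well, from 445 higher and 767 lower to 1990 higher and 289 lower with TPM. In its own class of coding length CAV1 stood above 60.2% of genes and CAV2 above 60.3%, since the class medians were -0.19 and -0.30, while CAVIN1 stood above 78.4% and CAVIN3 above 33.5%. CAV2 lies near the upper limit of its class, however, and at -0.22 it was below the median of the next class, -0.19.

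**Figure D4:**
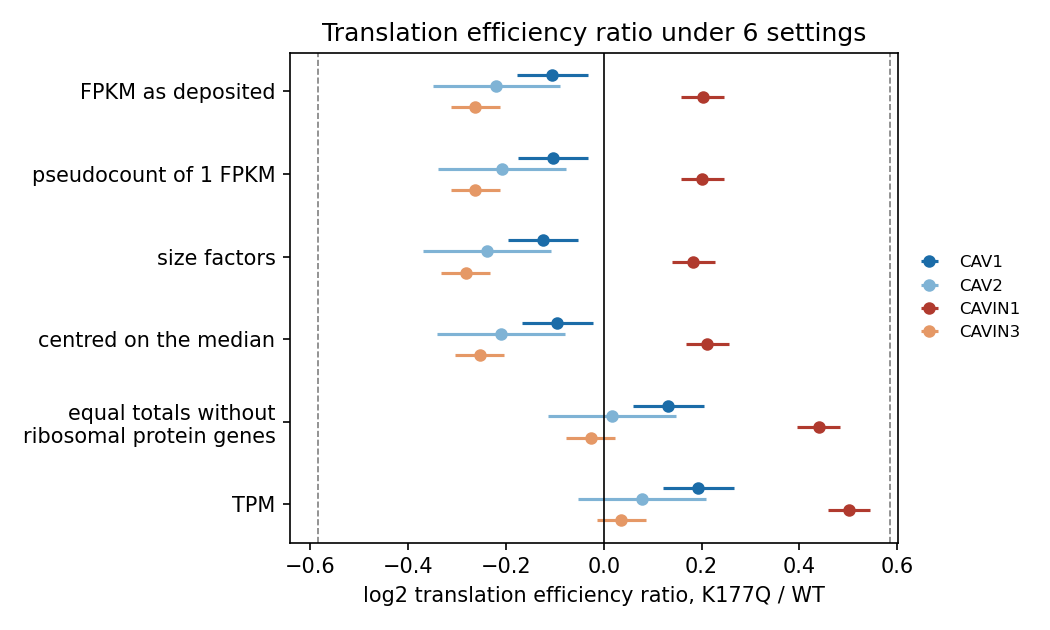
Log2 translation efficiency ratio of METTL3-K177Q to METTL3-WT for the 4 members under 6 settings, with 95% counting intervals as bars and dashed lines at 1.5-fold. CAVIN1 is to the right of 0 throughout (0.20 in FPKM, 0.50 in TPM), whereas CAV1, CAV2 and CAVIN3 are left of 0 in the upper 4 settings and at or right of it in TPM.

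The ratio can be taken apart by fraction. In polysome RNA, METTL3-K177Q over METTL3-WT was -0.0094 on the log2 scale for CAV1 (-0.058 to 0.039), a difference not detectable at this depth. It was -0.36 for CAV2, 0.17 for CAVIN1 and -0.13 for CAVIN3. CAV2, at 0.781-fold, was above only 9.74% of expressed genes, and above 20.9% of its class of coding length, whose median was -0.18. In this fraction 0 of 4 members passed 1.5-fold upward, with 2.13% of expressed genes, and 0 of 4 downward, with 3.13%. In sub-polysome RNA the values were 0.095 for CAV1, -0.14 for CAV2, -0.037 for CAVIN1 and 0.13 for CAVIN3, and 0 of 4 members passed 1.5-fold in either direction, against 4.01% of expressed genes higher and 2.94% lower. The interval of CAVIN1 in sub-polysome RNA, from -0.073, reached 0 on the FPKM scale, but with TPM CAVIN1 was at -0.24 there and at 0.26 in polysome RNA. CAV2 was lower in both METTL3-K177Q libraries. CAVIN3 was higher in the sub-polysome and lower in the polysome library of METTL3-K177Q cells, and CAV1 higher in the sub-polysome library only, but both sub-polysome values turned negative with TPM, to -0.077 for CAVIN3 and -0.11 for CAV1. On that scale the median of all expressed genes in sub-polysome RNA moved by -0.20.

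Ratios between 2 members of the same library do not depend on how libraries are scaled. CAV1 stood 2.43-fold over CAV2 in sub-polysomes and 4.79-fold in polysomes of METTL3-WT cells, and 2.86-fold and 6.10-fold in METTL3-K177Q cells. Relative to its partner, then, CAV1 was about 1.97-fold more polysomal in METTL3-WT and 2.14-fold in METTL3-K177Q cells. The genotypes differed by 0.11 in this log2 value with a counting SE of 0.076, which is within counting error.
CAVIN1 was 0.298 times CAVIN3 in the sub-polysome and 0.569 times in the polysome library of METTL3-WT cells, and 0.265 and 0.701 times in METTL3-K177Q cells. The cavin pair was the one most unlike between genotypes, with a log2 difference of 0.47 (counting SE 0.034), or 1.38-fold. CAV2 against CAVIN1 followed at -0.42, or 0.746-fold, then CAV1 against CAVIN1 at -0.31, while CAV1 against CAVIN3 was at 0.16 and CAV2 against CAVIN3 at 0.044. The pairs holding CAVIN1 are thus the 3 with the widest difference, and all 6 pairs stayed below 1.5-fold.
The make-up of the coat mRNAs differed by fraction accordingly. CAV1 made 70.9% of the summed CAV1 and CAV2 FPKM in METTL3-WT sub-polysomes and 82.8% in polysomes, and 74.1% and 86.0% in METTL3-K177Q cells. CAVIN1 made 22.9% and 36.3% of the cavin pair in METTL3-WT, and 21.0% and 41.2% in METTL3-K177Q cells. Summed cavins exceeded summed caveolins 4.85-fold and 6.21-fold in METTL3-WT, and 5.06-fold and 6.41-fold in METTL3-K177Q cells.

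The other family members were less abundant than the 4 members in each library. CAVIN2, or SDPR, a cavin that shapes membrane curvature, had 8.45 and 10.1 FPKM in METTL3-WT and 6.21 and 7.33 FPKM in METTL3-K177Q cells, sub-polysome first. It was lower in METTL3-K177Q cells in both fractions, by log2 ratios of -0.44 and -0.46, below 1.5-fold on the FPKM scale. TPM moved the median of expressed genes in sub-polysome RNA by -0.20, so this limit depends on the scaling. The translation efficiency ratio of CAVIN2 was -0.024 (-0.26 to 0.21). CAV3, the muscle caveolin, lay between 0.186 and 0.501 FPKM, and CAVIN4, the muscle cavin, between 0.282 and 0.649 FPKM. Such values stand for about 7 to 18 and 21 to 50 fragments, and both genes fell under the filter, so no ratio is given.

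EHD, PACSIN and dynamin proteins work at the neck of caveolae, and filamin A ties CAV1 to actin. Of the 9 such genes 8 were expressed, and the exception, PACSIN1 of neurons, stayed at or below 0.122 FPKM. At 1.5-fold 6 of 8 were higher in polysomes of METTL3-WT cells and 7 of 8 in METTL3-K177Q cells, against 28.1% and 30.2% of expressed genes. None of the 8 was lower in either genotype, against 19.1% and 21.3%, and the median log2 ratios were 0.88 and 0.78. EHD2, the ATPase that holds caveolae at the surface, had 69.4 and 92.8 FPKM in METTL3-WT, and 70.5 and 115.5 FPKM in METTL3-K177Q cells. On the FPKM scale it passed 1.5-fold in METTL3-K177Q cells alone (1.64-fold against 1.34-fold). Size factors moved the METTL3-K177Q median of expressed genes by -0.16, so this crossing depends on the scaling.
FLNA, the actin crosslinker, had 77.7 and 236.1 FPKM in METTL3-WT, and 62.8 and 272.1 FPKM in METTL3-K177Q cells. Its log2 translation efficiency ratio of 0.51 was the highest of the list, and its coding sequence of 7944 bases is also the longest.
PACSIN2, the F-BAR protein of non-muscle caveolae, went from 14.1 to 27.04 FPKM in METTL3-WT and from 13.0 to 27.4 FPKM in METTL3-K177Q cells. PACSIN3, the muscle form, had 53.9 and 100.4, then 54.0 and 89.3 FPKM, and the lowest translation efficiency ratio of the list, -0.17. The dynamin DNM2 had 64.9 and 86.4, then 71.4 and 101.7 FPKM.
Among the other EHD ATPases EHD1 had 54.6 and 113.7, then 53.3 and 110.2 FPKM, EHD4 8.67 and 15.8, then 10.3 and 18.4 FPKM, and EHD3 was low at 1.36 to 2.40 FPKM. Between genotypes 0 of 8 neck and linker genes passed 1.5-fold in translation efficiency in either direction, where 4.08% of expressed genes were higher and 7.03% lower. Their median log2 translation efficiency ratio was 0.045, against -0.0095 over expressed genes. TPM moved the latter median by 0.30, so the count of 0 belongs to the FPKM scale. CAVIN1 had a polysome to sub-polysome ratio of the size seen in these partners. CAV1, CAV2 and CAVIN3 lay below the lowest of them, DNM2 at 0.41 in METTL3-WT and 0.51 in METTL3-K177Q cells. The 8 genes have coding sequences of 1275 to 7944 bases, each longer than that of any member (at most 1173 bases). The part of length in these counts and contrasts was not tested.

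Flotillins and stomatin are scaffolds of other membrane microdomains. FLOT1 had 151.0 and 191.3, then 176.4 and 202.9 FPKM, FLOT2 42.3 and 45.9, then 43.5 and 51.1 FPKM, and STOM 7.55 and 3.69, then 6.97 and 4.38 FPKM. STOM resembled CAV2 in being lower in polysomes, with log2 ratios of -1.01 and -0.66. Translation efficiency ratios were -0.14 for FLOT1, 0.12 for FLOT2 and 0.36 for STOM. Thus 0 of 3 passed 1.5-fold, where 4.08% of expressed genes were higher and 7.03% lower. The study listed STOM among genes with translation efficiency raised at least 1.5-fold in METTL3-K177Q cells. Here, with 1 library per group and on the FPKM scale, it was 1.28-fold. TPM moved the median translation efficiency ratio of expressed genes by 0.30, so the distance of STOM from 1.5-fold depends on the scaling.

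Of 7 signalling proteins found in caveolae, 6 were expressed, NOS3 being the exception. Their log2 translation efficiency ratios ran from 0.11 for FYN, a Src family kinase, to 0.50 for INSR, the insulin receptor. The median was 0.24, and all 6 were above 0, as were 48.9% of expressed genes. In FPKM 0 of 6 passed 1.5-fold, where 4.08% of expressed genes were higher and 7.03% lower. TPM moved the median of expressed genes by 0.30, so this count belongs to the FPKM scale. The coding sequences of the 6 genes, of 1512 to 4149 bases, fall in length classes whose median ratios were themselves above 0, from 0.029 to 0.25.
The clathrin coat, the other main coat of surface pits, served as a comparison. Of its 9 genes 3 were at least 1.5-fold higher in polysomes of METTL3-WT cells and 0 lower, beside 28.1% and 19.1% of expressed genes. In METTL3-K177Q cells 4 were higher and 1 lower, beside 30.2% and 21.3%. Between genotypes 0 of 9 passed 1.5-fold in translation efficiency, beside 4.08% of expressed genes higher and 7.03% lower. For the 9 genes the log2 translation efficiency ratios ran from -0.32 for AP2S1, the small AP-2 subunit, to 0.17 for AP2A2, a large one. Their median was 0.078. The members' range of -0.26 to 0.20 was of like width.

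Likeness of profile was measured as the Euclidean distance between log2 FPKM profiles centred on their own mean over the 4 libraries, among the 5379 genes averaging 10 FPKM or more. Such a distance over so few libraries is a description only. Nearest to CAV1 were DAZAP2 (0.015), LOC728554 (0.019) and ARPC4 (0.027), an Arp2/3 subunit, and nearest to CAV2 were ROBO3 (0.031), COPRS (0.050) and PCLAF (0.051), a PCNA-binding protein. CAVIN1 was nearest to SPAG5 (0.036), a spindle protein, SEC24C (0.040), a COPII coat subunit, and PLK1 (0.059), a mitotic kinase. CAVIN3 was nearest to NEK6 (0.033), a kinase, PITHD1 (0.035) and PMM1 (0.043), a phosphomannomutase. Within the group CAV1 and CAVIN3 were the closest pair, at 0.24, and CAV2 and CAVIN1 the farthest, at 2.02. CAV1 and CAV2, neighbours in the genome and partners in the membrane, were 1.08 apart.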

How the data were processed

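Polysome profiling RNA-seq of MDA-MB-231 cells was analysed in 4 libraries, 1 per METTL3 genotype and fraction. Gene-level FPKM was used as the authors deposited it. The submitters' processing notes name STAR 2.7, StringTie 2.1.5 and hg38; the annotation was not given in the sources used here. Another 4 columns of values, whose names carry replicate number 1 for the same conditions, could not be matched to a listed sample and were left out. The members and gene lists were chosen with earlier results of these data known.

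Genes averaging 1 FPKM or more were kept. Ratios were log2((FPKM + 0.1)/(FPKM + 0.1)), translation efficiency was polysome over sub-polysome, and 1.5-fold was the threshold. With 1 library per group no test was made. Positions, lengths, motifs and sequences came from the canonical transcripts of GENCODE 44, matched by symbol for 25852 of 28198 genes. The median of FPKM multiplied by transcript length within a set window of 30 to 55 was taken as 1 fragment. Intervals used 1.96 standard errors.

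Named genes were the 4 members, METTL3, all genes of the other caveolin and cavin, neck and linker, and raft scaffold lists, the extremes of the remaining lists, and the 3 genes most like each member. NOS3 and the cell line markers were named in addition, as the unexpressed gene of a list and as the check of the line. Alternatives were pseudocounts of 1 and 0.01 FPKM, no filter or a minimum of 10 FPKM, 4 other scalings (TPM, equal totals without ribosomal protein genes, median-of-ratios size factors, centring on the median) and a 2-fold threshold. The calculation was tested on simulated data. The software was Python 3.11.15, numpy 2.4.6, pandas 2.3.3, biopython 1.88 and matplotlib 3.10.9.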

Additional observations from a re-analysis of the deposited data

Results flagged for a closer look

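CAVIN3 differed in opposite directions by fraction: METTL3-K177Q over METTL3-WT was, on the log2 scale, -0.13 in polysome RNA and 0.13 in sub-polysome RNA. Its polysome to sub-polysome ratio had opposite signs in the genotypes, 0.17 in METTL3-WT and -0.093 in METTL3-K177Q cells. The counting intervals of these values left out 0, but they do not cover variation between libraries, and with 1 library each the difference was not tested. With TPM the sub-polysome value was -0.077 and the METTL3-K177Q ratio 0.34, so neither contrast of sign held on that scale.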

How the results depend on the processing

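No paired analysis was possible because each genotype and fraction had 1 listed library, and no replicate could be left out. The filters on low values cannot move a member's ratio. The 14 changes of sign among members came with TPM, equal totals or centring, which by construction move all genes of a comparison by about the same amount. TPM gave translation efficiency ratios of 0.19 for CAV1, 0.078 for CAV2, 0.036 for CAVIN3 and 0.50 for CAVIN1, a METTL3-K177Q polysome to sub-polysome ratio of 0.34 for CAVIN3, a genotype ratio in polysome RNA of 0.083 for CAV1, and in sub-polysome RNA of -0.11 for CAV1 and -0.077 for CAVIN3. In sub-polysome RNA CAVIN1 was at -0.24 with both TPM and equal totals, against -0.037 in FPKM. With TPM 0 members were 1.5-fold lower in polysomes in METTL3-WT and 0 in METTL3-K177Q cells, beside 1710 and 1368 of the 10905 expressed genes. In the latter cells 2 members were higher, beside 5483 expressed genes. Equal totals without ribosomal protein genes gave translation efficiency ratios of 0.13 for CAV1, 0.017 for CAV2, -0.026 for CAVIN3 and 0.44 for CAVIN1. The same setting gave 0.12 for CAVIN3 in METTL3-K177Q cells, 0.027 for CAV1 in polysome RNA, and -0.10 for CAV1 and -0.071 for CAVIN3 in sub-polysome RNA; it moved the median translation efficiency ratio of expressed genes by 0.23. Centring gave 0.013 for CAV1 in polysome RNA. At 2-fold 0 members were lower in polysomes in either genotype, beside 1081 expressed genes in METTL3-WT and 1387 in METTL3-K177Q cells. CAVIN1 was still higher in both, beside 1363 and 1564 expressed genes. No setting took a member past its threshold in the translation efficiency ratio. Over the 10905 expressed genes that ratio had 445 higher and 767 lower in FPKM, 1503 and 345 with equal totals, 159 and 519 with a pseudocount of 1 FPKM, and 84 and 207 at 2-fold. Over all 28198 genes, with no filter, it had 1823 and 2140, and over the 5379 genes with a minimum of 10 FPKM 38 and 312. For polysomes over sub-polysomes, TPM gave 5483 higher and 1368 lower in METTL3-K177Q cells, size factors 2589 and 2855; in METTL3-WT cells size factors gave 2469 and 2593, and the minimum of 10 FPKM 1845 and 892 of its 5379 genes. For METTL3-K177Q over METTL3-WT, TPM gave 363 and 242 in polysome RNA and 198 and 1046 in sub-polysome RNA. Depth limits CAV3 and CAVIN4, at about 7 to 50 fragments.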
